A study of Mus musculus with 8 samples.

Results

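Basophils and mast cells are the blood and tissue cells that carry immunoglobulin E (IgE) on their surface and store proteases and histamine in granules. The 8 genes described here encode 4 granule proteases (Prss34, Mcpt8, Cpa3 and Gzmb), the 3 chains of the high-affinity IgE receptor (Fcer1a, Ms4a2 and Fcer1g) and the receptor for interleukin-33 (Il1rl1). They were taken by name from a table of 23282 named genes, and all 8 had a row. The table holds read counts for sorted mouse bone marrow hematopoietic stem and progenitor cells, 2000 cells per sample, in 2 groups of 4 libraries: Hdc-/- mice on a C57BL/6 background, and C57BL/6 wild-type (WT) mice. Both groups come from bone marrow and carry no other treatment in the labels. The labels give no age, sex or sort markers, do not state which part of Hdc was altered, and do not say whether each sample came from a separate mouse.

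Hdc encodes histidine decarboxylase, which makes the histamine that basophils and mast cells release. Its reads numbered 875, 773, 821 and 740 in the libraries labelled Hdc-/-, against 275, 199, 261 and 263 in WT. Its level was thus higher in every library labelled as lacking it (log2 fold change 1.58, SE 0.11, edgeR quasi-likelihood adjusted p = 6.4e-08). The counts are per gene and do not show whether the transcript is intact, so that group is called the libraries labelled Hdc-/- and all directions rest on the labels. One of its columns has no number that matches a title and is called the unnumbered library. WT 1 stood apart from the other WT libraries, with a chi-square per gene of 23.5 to 27.7 against them, compared with 6.84 to 7.56 among the others. Values without WT 1 are given for Prss34, Mcpt8, Fcer1a, Fcer1g and Il1rl1, and where leaving it out changed the call of a list gene named here.

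The alpha chain of the receptor (Fcer1a) binds the antibody. When an allergen cross-links bound IgE, the beta chain (Ms4a2) amplifies the signal and the gamma chain (Fcer1g) passes it on to the kinase Syk. The gamma chain also serves other Fc receptors of myeloid cells, so it is not particular to these cells. Mcpt8 and Prss34 (mast cell proteases 8 and 11 of the mouse) are serine proteases typical of mouse basophils, while Cpa3, a carboxypeptidase, is made by mast cells, basophils and their progenitors. Both lineages arise from bone marrow progenitors under the transcription factor Gata2, which binds GATA sequences.

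The stretches before the start of 4 of the genes are printed because these genes carried the main difference (Prss34, Mcpt8 and Fcer1a) or serve to set it against a related protease (Cpa3). Each holds the 250 bases upstream of the RefSeq start in GRCm38.p6, read 5′ to 3′ along the gene's own strand, with GATAA or its reverse complement TTATC in capitals.
Prss34, chr17:25298144-25298393, plus strand: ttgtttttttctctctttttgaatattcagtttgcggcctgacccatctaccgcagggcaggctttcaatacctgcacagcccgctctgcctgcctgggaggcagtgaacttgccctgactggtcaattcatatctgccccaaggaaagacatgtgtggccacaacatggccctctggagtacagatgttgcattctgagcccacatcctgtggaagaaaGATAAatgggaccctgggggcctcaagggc
Mcpt8, chr14:56085198-56085447, minus strand: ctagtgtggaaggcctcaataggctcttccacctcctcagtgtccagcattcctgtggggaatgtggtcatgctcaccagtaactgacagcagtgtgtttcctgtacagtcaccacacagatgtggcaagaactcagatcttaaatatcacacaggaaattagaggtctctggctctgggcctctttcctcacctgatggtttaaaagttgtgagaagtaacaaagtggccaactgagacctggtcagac
Fcer1a, chr1:173227230-173227479, minus strand: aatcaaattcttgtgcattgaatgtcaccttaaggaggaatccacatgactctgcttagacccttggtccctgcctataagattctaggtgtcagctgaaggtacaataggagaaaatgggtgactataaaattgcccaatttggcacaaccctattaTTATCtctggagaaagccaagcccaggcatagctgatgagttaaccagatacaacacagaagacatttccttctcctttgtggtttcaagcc
Cpa3, chr3:20242182-20242431, minus strand: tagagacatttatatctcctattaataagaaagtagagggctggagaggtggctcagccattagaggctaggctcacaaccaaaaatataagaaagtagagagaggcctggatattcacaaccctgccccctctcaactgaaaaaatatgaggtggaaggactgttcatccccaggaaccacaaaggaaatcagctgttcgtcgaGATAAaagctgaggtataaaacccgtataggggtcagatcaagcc
GATAA on either strand was found in 6 of the 9 upstream windows that RefSeq gives for the 8 genes (Il1rl1 has a pair of starts), against 22.6% of 32851 windows of the same length over all genes. In Prss34 the match began 30 bases before the start, in Cpa3 45 and in Fcer1a 92. Ms4a2 held 3 matches, and no match was found in the windows of Mcpt8, Gzmb and Fcer1g. The sequence TGTGGT (or ACCACA), which Runx factors bind, was in 5 of the 9 windows against 14.05% of all, with 2 matches in Mcpt8. TTCNNNGAA, the form bound by Stat5, was in 0 of the 9 against 7.02% of all. These are matches of letters and show no binding.

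The proteases Prss34 and Mcpt8 were the members called lower. Prss34 was close to absent from the libraries labelled Hdc-/-, Mcpt8 was at a mean 4.72 times lower than in WT, and the alpha chain Fcer1a had no read in that group. The carboxypeptidase Cpa3, the gamma chain Fcer1g and the interleukin-33 receptor gene Il1rl1 did not pass the test, though Cpa3 also lay lower without overlap. In bulk samples, fewer cells of a type and less RNA per cell cannot be told apart.

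Prss34 had 0, 6, 2 and 2 reads in libraries 1, 2, 3 and the unnumbered one labelled Hdc-/-, against 833, 893, 1707 and 1720 in WT 1 to 4. The 2 groups were far apart, and within WT libraries 3 and 4 held about double the level of libraries 1 and 2. Scaled to library size as CPM (reads divided by the TMM-adjusted library size in mega-reads), it averaged 0.137 ± 0.139 in the libraries labelled Hdc-/-, against 73.4 ± 25.4 in WT (SD, n = 4 each), a ratio of means of 534 in favour of WT. The log2 fold change was -9.03 (SE 0.43, edgeR quasi-likelihood adjusted p = 4.8e-08). Per kilobase of exon, Prss34 went with Fcer1g at the top of the 8 genes in WT and among the lowest in the libraries labelled Hdc-/-.

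Mcpt8 had 73, 77, 61 and 67 reads in the libraries labelled Hdc-/-, against 274, 237, 326 and 395 in WT. Here too every library labelled Hdc-/- lay below every WT library, but a steady level remained: 3.74 ± 0.467 CPM in the libraries labelled Hdc-/-, against 17.6 ± 3.29 CPM in WT (SD, n = 4 each). The log2 fold change was -2.24 (SE 0.18, edgeR quasi-likelihood adjusted p = 3.8e-07). Among the 6 members that could be tested over all genes, Prss34 and Mcpt8 were the 2 called, both lower, where 2.71% of all 13005 tested genes were called lower. Prss34 was below the filter's minimum count in every library labelled Hdc-/-, so it entered this test only through its WT reads. Without WT 1 the log2 fold changes were -9.18 for Prss34 and -2.28 for Mcpt8.

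**Figure D1:**
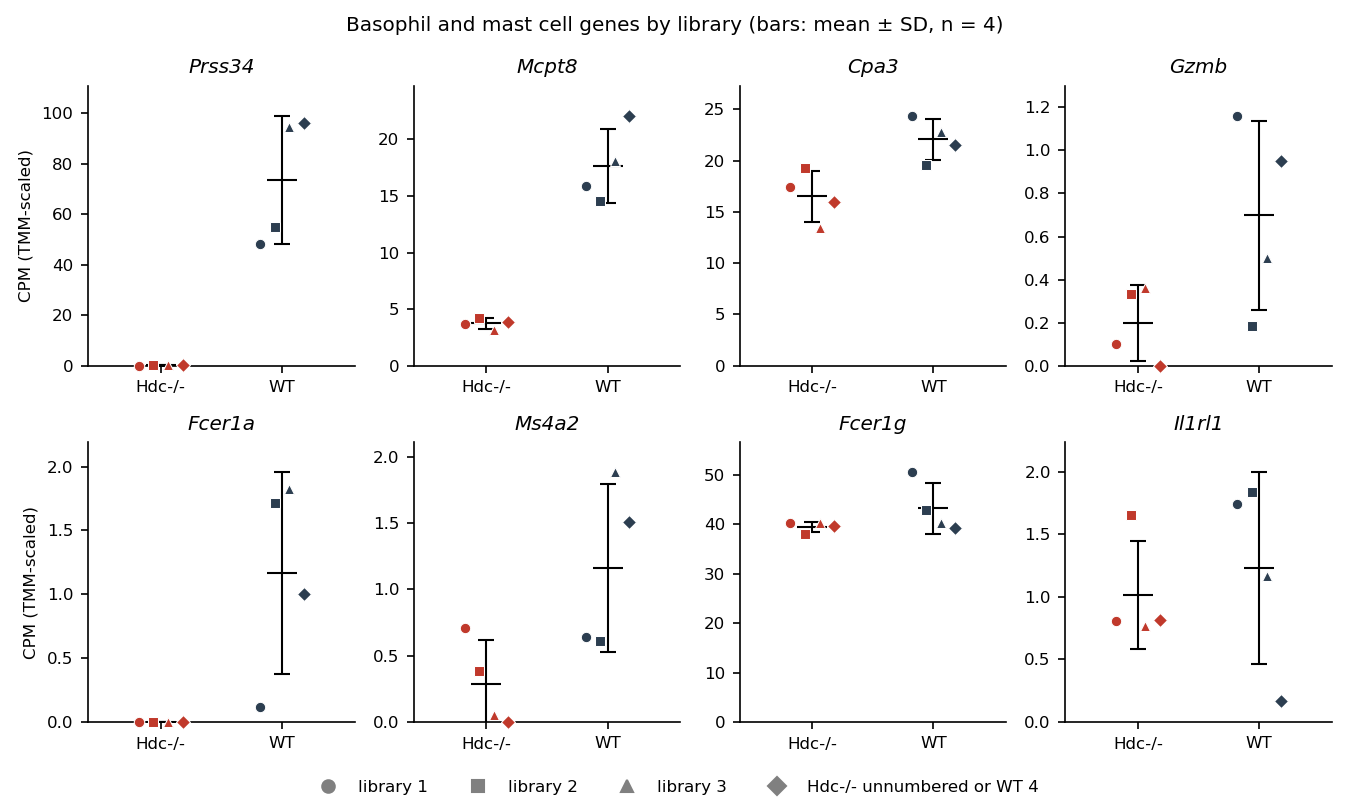
Level of each of the 8 genes in every library, in TMM-scaled CPM on linear axes from 0, with one symbol per library, and bars for the mean ± SD (n = 4). Prss34, Mcpt8, Cpa3 and Fcer1a show no overlap between the groups, Prss34 with at most 6 reads and Fcer1a with 0 in any library labelled Hdc-/-. The other 4 genes overlap.

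Cpa3 had 345, 350, 262 and 275 reads in the libraries labelled Hdc-/-, against 420, 319, 412 and 385 in WT. After scaling, the ranges just failed to meet, at 13.5 to 19.3 CPM in the libraries labelled Hdc-/- and 19.6 to 24.4 CPM in WT. The log2 fold change was -0.42 (SE 0.13), with an adjusted p of 0.084 by edgeR's quasi-likelihood test, short of the threshold of 0.05. With DESeq2 in its place the adjusted p was 0.0477, and over the 14 alternatives it ran from 0.0477 to 0.292. CPM ranges that do not overlap, with the lower one in the libraries labelled Hdc-/-, were found in 3 of the 6 tested members and in 6.89% of all tested genes. The 3 include Prss34, which was tested only because of its WT reads.

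Gzmb encodes granzyme B, a serine protease of cytotoxic lymphocytes that mouse basophils and mast cells can make as well. It had 2, 6, 7 and 0 reads in the libraries labelled Hdc-/-, against 20, 3, 9 and 17 in WT. The groups overlapped, since WT 2 lay below a pair of the libraries labelled Hdc-/-, and the gene was too low for the filter of the main test. Without that filter its log2 fold change was -1.78 (SE 0.86, edgeR quasi-likelihood adjusted p = 0.316). At this depth a difference was not detectable.

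Of the 3 receptor chains, Fcer1a had 0 reads in each of the 4 libraries labelled Hdc-/-, against 2, 28, 33 and 18 in WT. WT 1 was the low one, near the other group, and because of it the gene fell short of the filter on low counts. Set against a floor of 3 reads over the whole group labelled Hdc-/-, the pooled level was at least 29.0-fold lower there than the 1.17 CPM in WT, and at least 37.6-fold lower without WT 1. In the edgeR fit with no filter on low counts it passed (adjusted p = 0.0017). With WT 1 left out it entered the filtered fit and had an adjusted p of 0.000385. With 0 reads in the other group it can enter a filtered fit only through its WT reads, so that pass is not separate support. The size of the fitted fold change of a gene at 0 in a group depends on the fit and is not given as a result.

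Ms4a2, the beta chain, had 14, 7, 1 and 0 reads in the libraries labelled Hdc-/-, against 11, 10, 34 and 27 in WT. Library 1 labelled Hdc-/- lay within the WT range, so the groups overlapped. The mean was 0.286 ± 0.329 CPM in the libraries labelled Hdc-/-, against 1.16 ± 0.637 CPM in WT (SD, n = 4 each), and the log2 fold change of -1.98 (SE 0.71) did not pass (edgeR quasi-likelihood adjusted p = 0.136). Leaving out library 1 labelled Hdc-/- moved it to -2.94 with an adjusted p of 0.0649.

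Fcer1g, the gamma chain, was the most abundant of the 3 and had 795, 691, 786 and 683 reads in the libraries labelled Hdc-/-, against 872, 701, 727 and 702 in WT. It averaged 39.6 ± 1.01 CPM in the libraries labelled Hdc-/-, against 43.3 ± 5.13 CPM in WT (SD, n = 4 each), with overlapping ranges. Its log2 fold change was -0.13 (SE 0.10, edgeR quasi-likelihood adjusted p = 0.523), and -0.04 without WT 1 (adjusted p = 0.833).

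Il1rl1 encodes ST2, the receptor through which interleukin-33 activates basophils, mast cells and group 2 innate lymphoid cells. It had 16, 30, 15 and 14 reads in the libraries labelled Hdc-/-, against 30, 30, 21 and 3 in WT. Both the highest and the lowest value were in WT, and the groups overlapped. Its log2 fold change of -0.27 (SE 0.54, edgeR quasi-likelihood adjusted p = 0.839) was above 0 with limma-voom (0.0867). Single libraries moved it: it was -0.05 without WT 1, -0.02 without WT 2, -0.64 without WT 4 and -0.62 without library 2 labelled Hdc-/-, with no call in any of these fits. The gene makes a membrane-bound and a soluble form from separate starts, which counts per gene do not tell apart.

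Levels of different genes were compared per kilobase of exon, using the GENCODE M21 exons joined over all transcripts. In the libraries labelled Hdc-/- Fcer1g led at 52.9 ± 1.35 CPM per kb, followed by Cpa3 at 11.4 ± 1.71 and Mcpt8 at 4.47 ± 0.558 (SD, n = 4), and the ranges of these 3 did not overlap. The remaining 5, Prss34 among them at 0.113 ± 0.114, averaged at most 0.148 CPM per kb, with Fcer1a at 0 throughout. In WT the order was Prss34 (60.2 ± 20.8 CPM per kb), Fcer1g (57.8 ± 6.85), Mcpt8 (21.1 ± 3.94) and Cpa3 (15.2 ± 1.40), with overlapping ranges for Prss34 and Fcer1g and separate ones below them. Fcer1a (1.17 ± 0.791), Gzmb (0.486 ± 0.306), Ms4a2 (0.413 ± 0.226) and Il1rl1 (0.180 ± 0.112) followed in WT with overlapping ranges. Exons of several forms are joined, which understates genes with a long alternative form such as Il1rl1.

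Ratios of 2 genes within a library do not depend on how libraries are scaled, and show whether the 2 genes changed by unequal amounts. In bulk libraries the 2 genes can come from different cells, so a ratio cannot place the change within a cell type. Of 8 ratios, 5 differed between the groups with no overlap, each with p = 0.0286 in a two-sided exact permutation test, the smallest p that 4 against 4 libraries allow, and 0.0457 adjusted over the 8. The ratios were chosen with earlier results of these data known. Mcpt8 to Cpa3 had a mean log2 ratio of -2.13 ± 0.0899 in the libraries labelled Hdc-/- and -0.34 ± 0.274 in WT (SD, n = 4 each), so the basophil protease fell by 1.797 more on the log2 scale than the carboxypeptidase. Prss34 to Mcpt8 was -5.04 ± 1.53 in the libraries labelled Hdc-/- and 2.01 ± 0.332 in WT: the fall of Prss34 exceeded that of Mcpt8 as well. Hdc to Cpa3 went the other way, at 1.39 ± 0.209 in the libraries labelled Hdc-/- and -0.62 ± 0.0578 in WT.

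Fcer1a fell relative to both Fcer1g and Cpa3. Its log2 ratio to Fcer1g was -10.53 ± 0.117 in the libraries labelled Hdc-/- and -5.69 ± 1.87 in WT, but with 0 reads in the first group the size of this gap rests on the 0.5 read added to each count. For Fcer1a to Ms4a2 the difference of -2.24 did not pass (exact permutation p = 0.200, adjusted 0.267), nor did those of Mcpt8 to Gzmb (-0.22, adjusted 0.857) and Il1rl1 to Cpa3 (0.49, adjusted 0.857).

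**Figure D2:**
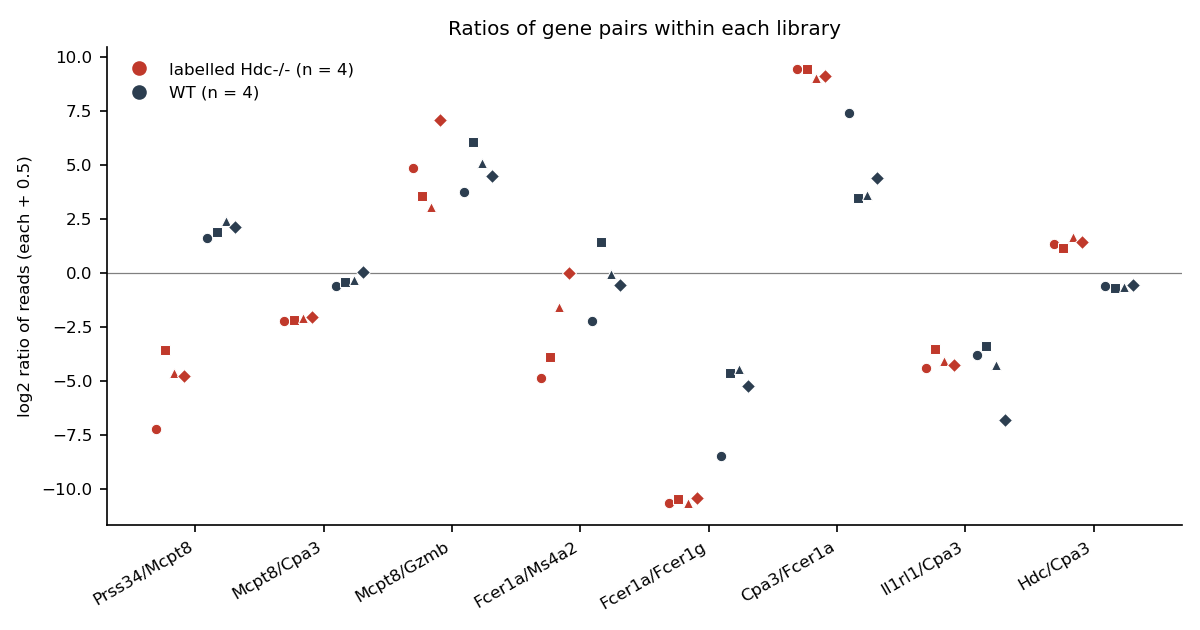
The log2 ratio of reads (0.5 added to each count) of 8 gene pairs in every library, red for the libraries labelled Hdc-/- and dark blue for WT (n = 4 each, symbols as in the plot of levels by library). Prss34/Mcpt8, Mcpt8/Cpa3 and Fcer1a/Fcer1g lie lower in all 4 libraries labelled Hdc-/- than in any WT library, Cpa3/Fcer1a and Hdc/Cpa3 lie higher, and the other 3 pairs overlap.

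The proteases of connective tissue mast cells gave scattered reads that followed single libraries, not the groups. Tpsb2, a tryptase, had 0, 37, 0 and 29 reads in the libraries labelled Hdc-/-, against 0, 6, 0 and 0 in WT. Cma1, a chymase, had 0, 25, 0 and 33 reads in the libraries labelled Hdc-/-, against 19, 15, 0 and 6 in WT, and its log2 fold change was 0.46 (SE 1.09, edgeR quasi-likelihood adjusted p = 0.866). Mcpt4, another chymase, had 10 reads in the unnumbered library and 0 in the rest. The reads of these 3 in the libraries labelled Hdc-/- came from library 2 and the unnumbered one. Of the 10 other mast cell protease genes, 5 had no read in any library, and of the 2 tested one fell: Ctsg, cathepsin G, which neutrophil precursors make in quantity (log2 fold change -0.79, SE 0.16, edgeR adjusted p = 0.0066).

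Prss34 and Mcpt8 lie among related proteases in the genome. Around Prss34 on chromosome 17, the 5 listed genes on either side held 4 that could be tested, and none of the 4 was called by edgeR, DESeq2 or limma-voom, with 0 at an unadjusted p under 0.05 in edgeR. Of the tryptase-like genes among these neighbours, Prss28, Prss29, Tpsab1 and Tpsg1 had 0 reads in every library, and Tpsb2 had the reads given above. Around Mcpt8 on chromosome 14 most neighbours were silent or nearly so, and of the 2 tested, Gm5801 did not pass (-0.11, SE 0.10, edgeR adjusted p = 0.623) while the adjacent Ctsg was the one that fell, by less than Mcpt8. Order of genes is that of RefSeq for GRCm38.p6, while the counts were made on mm9, so no coordinates of these genes are given.

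Profiles over the 8 libraries were compared by the root mean square distance of centred log2 CPM. It is not scaled, so it depends on the size of the group difference as well as on shape. Mcpt8 was nearest to Gimap3, a GTPase of lymphocytes (0.25), Xlr3b (0.28) and the growth factor gene Tgfb3 (0.29), which had log2 fold changes of -2.55, -2.37 and -2.16. For Prss34, whose fold change was larger than theirs, the nearest were Capn11, a calpain (2.07), Kcnip3 (2.26) and Slco4c1 (2.99), with log2 fold changes of -6.28, -4.79 and -2.77.

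In each of the signalling and transcription factor lists 1 gene was called. Of 16 tested genes of IgE receptor signalling, Lat2, an adaptor below the receptor, rose by 0.31 on the log2 scale (SE 0.07, edgeR adjusted p = 0.0117) and none fell. The kinases Lyn (0.04, SE 0.07) and Syk (0.11, SE 0.06) did not pass. The median of this list was 0.03, beside 0.004 over all 13005 tested genes, of which 4.76% were called in either direction. Of 11 tested transcription factors of the lineage, Runx1 rose by 0.27 (SE 0.08, adjusted p = 0.0484), none fell, and the list median was 0.05. The call of Runx1 held without WT 1 or WT 3 and was lost with any other library left out (adjusted p up to 0.160). Gata2 had 133 ± 2.38 CPM in the libraries labelled Hdc-/-, against 118 ± 9.97 CPM in WT (SD, n = 4 each; log2 fold change 0.18, SE 0.07, edgeR adjusted p = 0.179), and Gata1 (0.29, SE 0.19) and Mitf (-0.31, SE 0.19), a factor of mast cells, did not pass either.

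Among 16 tested surface receptors of basophils and mast cells, Ccr1, a chemokine receptor, fell by 1.14 (SE 0.23) and Il18r1, of the interleukin-18 receptor, by 0.68 (SE 0.18), and none rose (list median 0.04). Ccr1 kept its call with any library left out, and Il18r1 kept it only when WT 2 or WT 3 was the one left out (-0.59 and adjusted p = 0.0734 without WT 1). Receptors that these cells use and that did not pass included the stem cell factor receptor Kit (0.32, SE 0.13, adjusted p = 0.227), the interleukin-3 receptor Il3ra (0.17, SE 0.12), the basophil marker Cd200r3 (0.11, SE 0.52) and the integrin Itga2 (-0.13, SE 0.36). Kit was low in WT 1, at 806 CPM against 1268 to 1344 CPM in the other WT libraries, and without WT 1 its 0.17 passed (edgeR adjusted p = 0.0136). Cd200r3 had 10, 21, 13 and 8 reads in the libraries labelled Hdc-/-, against 4, 10, 19 and 12 in WT, so this marker did not separate the groups. The list of interleukin-33 receptor partners and signalling, with 12 tested genes, also holds genes of the interleukin-18 receptor. Its only call was again Il18r1, of the interleukin-18 receptor. The interleukin-33 co-receptor Il1rap stood at 0.44 (SE 0.15, edgeR adjusted p = 0.123). Of 5 tested partners of the gamma chain, Fcgr3, an IgG receptor, fell by 0.82 (SE 0.19), with adjusted p up to 0.0649 when 1 library was left out (library 1 or 2 labelled Hdc-/-, or WT 4). The list median was -0.95, and 4 of the 5 had an unadjusted p under 0.05, against 18.7% of all tested genes. Their directions were mixed: Clec4e, a lectin receptor, stood at 0.25 (SE 0.08, adjusted p = 0.0907), was called higher by DESeq2, and by edgeR without WT 1 (0.29, adjusted p = 0.0242).

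Of 14 tested mediator genes, 2 rose and 1 fell (list median -0.06). Beside Hdc, the rise was in Slc18a2, which loads histamine into granules (0.31, SE 0.08, adjusted p = 0.0318), and the fall in Alox5, the first enzyme of leukotriene synthesis (-0.85, SE 0.22, adjusted p = 0.0368, with overlapping ranges). Alox5 was not called by limma-voom (adjusted p = 0.0682), nor in 5 of the 8 edgeR fits that left out 1 library (-0.73 and adjusted p = 0.0741 without WT 1; the others left out libraries 1, 2 or 3 labelled Hdc-/-, or WT 4). Slc18a2 lost its call without library 3 or the unnumbered library labelled Hdc-/-, or without WT 2 or 4 (adjusted p up to 0.133). Il4, a cytokine that basophils release, had 18, 16, 27 and 24 reads in the libraries labelled Hdc-/-, against 19, 29, 28 and 32 in WT, and did not pass (-0.44, SE 0.37, edgeR adjusted p = 0.567). Ltc4s (0.28, SE 0.15) and Hpgds (0.21, SE 0.14), enzymes of leukotriene and prostaglandin synthesis, did not pass either.

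**Figure D3:**
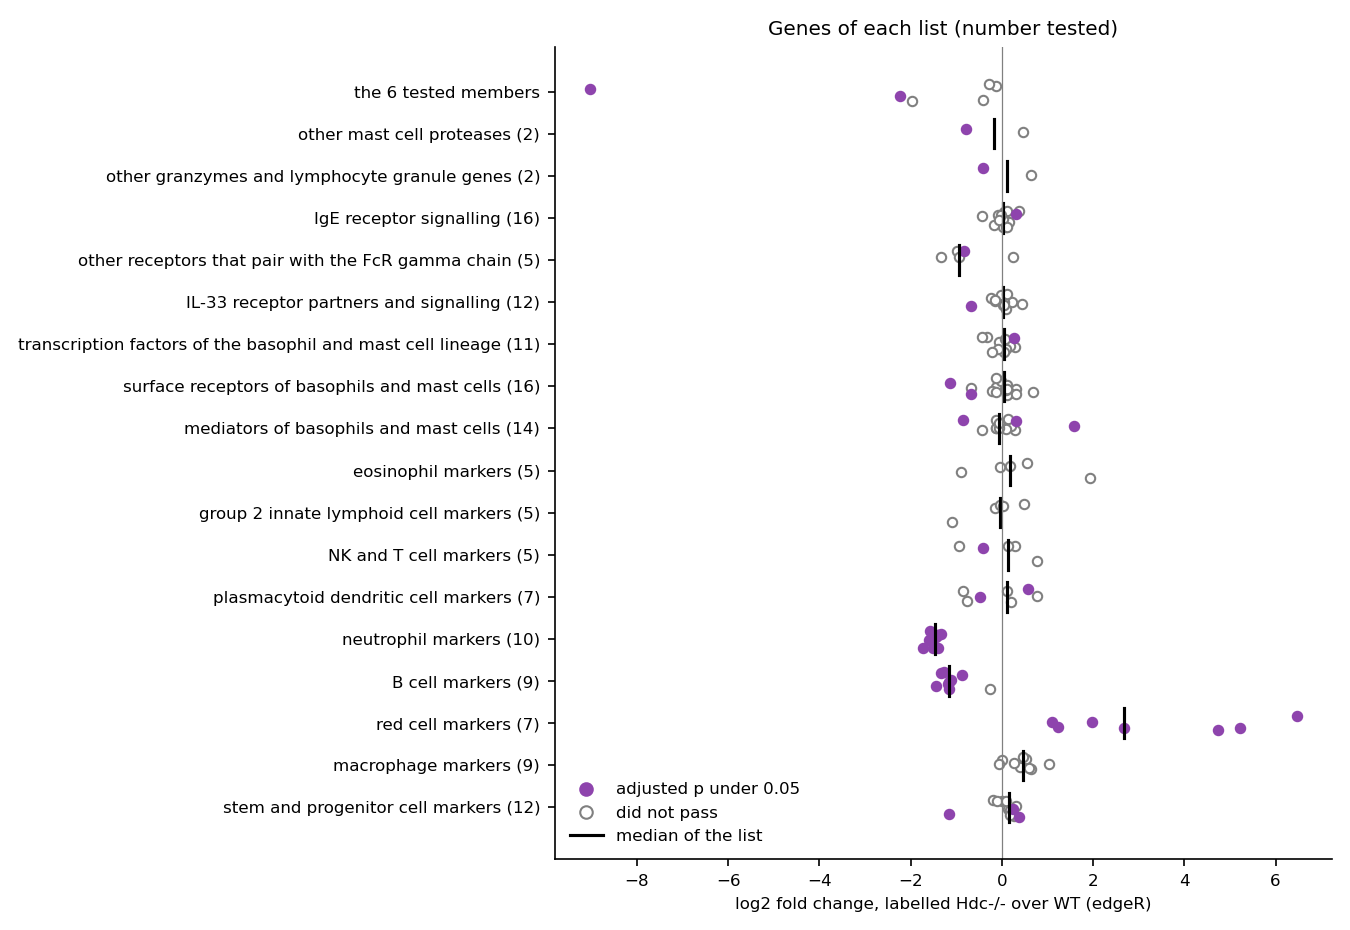
Log2 fold changes (labelled Hdc-/- over WT, edgeR) of the 6 tested members and of the tested genes of 17 lists, one point per gene, filled at an adjusted p under 0.05, with a black line at the median of each list. Prss34 at -9.03 and Mcpt8 at -2.24 lie far from the medians of the IgE receptor signalling (0.03), surface receptor (0.04) and transcription factor (0.05) lists, while the neutrophil, B cell and red cell lists lie to one side.

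Other cell types could hold some of these transcripts. The eosinophil list was driven by single libraries: Epx, eosinophil peroxidase, had 16, 0, 5 and 12 reads in the libraries labelled Hdc-/- and 0, 0, 491 and 0 in WT, and Prg2, major basic protein, had 487, 60, 27 and 72 in the libraries labelled Hdc-/- and 57, 3, 1069 and 3 in WT. None of its 5 tested genes was called by edgeR or limma-voom, 1 was called higher by DESeq2 and 1 had an unadjusted p under 0.05. The part of eosinophils in the differences of the 8 genes was not tested. Of 5 tested NK and T cell markers, which matter for Gzmb, Nkg7 fell (-0.40, SE 0.07). Cd3e had at most 4 reads in any library, and the NK receptor gene Klrb1c (0.13, SE 0.34) did not pass. None of 5 tested markers of group 2 innate lymphoid cells was called by edgeR or limma-voom (1 higher by DESeq2, 2 at an unadjusted p under 0.05). Among 7 tested markers of plasmacytoid dendritic cells 1 rose (Ccr9, 0.57) and 1 fell (Bst2, -0.49), while 6 had an unadjusted p under 0.05 and DESeq2 called 1 higher and 3 lower. Among the 8 edgeR fits that left out 1 library, Ccr9 kept its call only without WT 3 or without WT 4 (0.48 and adjusted p = 0.0717 without WT 1).

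Markers of more distant lineages moved with the groups. All 10 neutrophil markers fell, and their summed level was 798 to 1444 CPM in the libraries labelled Hdc-/- and 2683 to 4075 CPM in WT. Of 9 tested B cell markers 8 fell. Summed over all 10 listed B cell genes, WT libraries held 267 to 351 CPM, and those labelled Hdc-/- held 162 to 184. That sum includes the untested Pax5 and Cd79b, which was not called (edgeR adjusted p = 0.0728). Cd79b alone averaged 113 CPM in WT and 93.8 in the other group, so the sum understates the fall of the called genes. All 7 red cell markers rose, at 529 to 569 CPM in the libraries labelled Hdc-/- and 119 to 133 CPM in WT. None of 9 tested macrophage markers was called by edgeR, though 6 had an unadjusted p under 0.05, 3 were called higher by DESeq2 and 1 by limma-voom. Their part in the differences of Prss34, Mcpt8 and Fcer1a was not tested. Neutrophil markers had a median log2 fold change of -1.48, beside -9.03 for Prss34 and -2.24 for Mcpt8. WT 1, the library with the highest neutrophil sum, had the lowest Prss34 and Fcer1a of the WT group. Mcpt8 was lowest in WT 2, while Cpa3, Fcer1g and Gzmb were highest in WT 1 among the WT libraries. The stem and progenitor markers of the list were present throughout, with Cd34 at 1364 ± 23.4 CPM in the libraries labelled Hdc-/-, against 1369 ± 36.7 CPM in WT (SD, n = 4 each). Of this list Flt3 rose (0.24) and Ly6a fell (-1.15). The call of Flt3 was lost without libraries 1, 3 or the unnumbered one labelled Hdc-/- (adjusted p up to 0.0617).

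**Figure D4:**
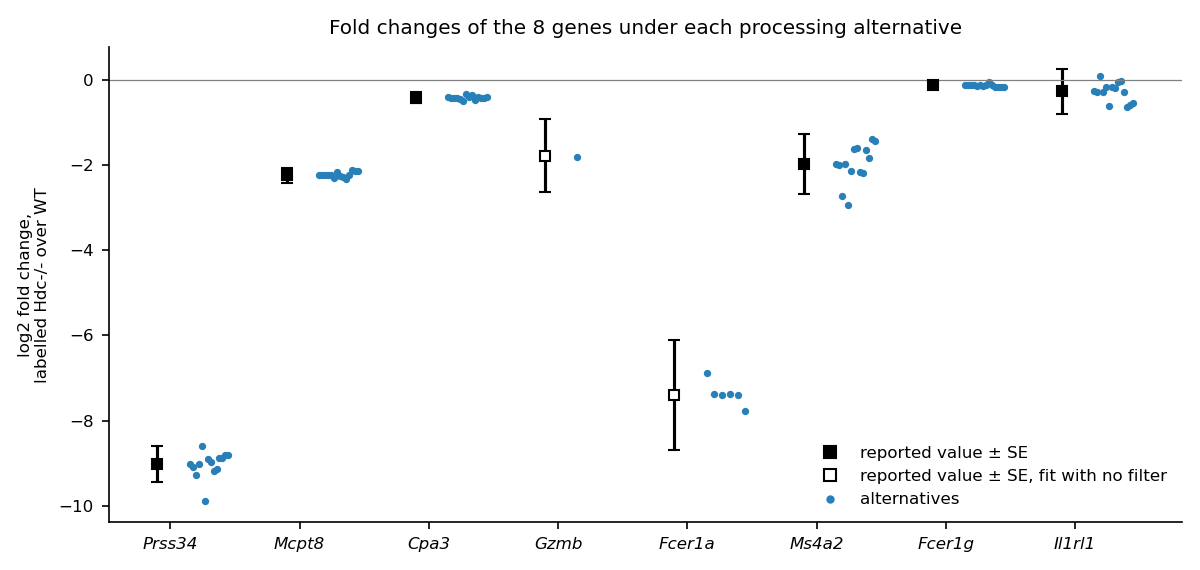
Log2 fold change (labelled Hdc-/- over WT) of each of the 8 genes as reported (squares with SE, open for Gzmb and Fcer1a, which were fitted with no filter on low counts) and under the alternatives that gave a value (blue points). Prss34 stays between -9.88 and -8.60 and Mcpt8 between -2.32 and -2.11, Ms4a2 spreads most among the tested genes that did not pass, and the fitted size for Fcer1a depends on how a group at 0 reads is fitted.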

How the data were processed

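Per the labels' protocols, the cDNA was amplified (SMARTer) and libraries were made with Nextera XT, which does not mark strand. The authors deposited raw counts of reads by gene symbol. The submitters' processing notes name HTSeq 0.6.1, TopHat2 2.0.4, Bowtie2 and bcl2fastq 1.8.4 with build mm9. They name no annotation, strand setting or counting mode. Without molecular identifiers, amplified copies count as reads, so counting error understates the uncertainty. No exon of the 8 genes overlaps another gene in GENCODE M21.

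Libraries held 16322738 to 19775106 reads on named genes; 2 rows labelled by a number (at most 0.0320% of reads) were left out, and 0 columns were unused. The test over all genes was that of edgeR 4.0.16 (R 4.3.3; TMM, filterByExpr with minimum count 10 and total 15, robust quasi-likelihood, two-sided, Benjamini-Hochberg over 13005 genes, threshold 0.05). SE is the fold change over the square root of F. CPM are TMM-scaled. Ratios within libraries had exact permutation tests. Levels per kb used GENCODE M21 exons (GRCm38), and promoters came from RefSeq GRCm38.p6, which matched all 8 genes. Alternatives were DESeq2 1.42.0, limma-voom 3.58.1, another scaling, no filter, each library left out, and a replicate block. The code was tested on simulated data. Named genes are the 8 members, Hdc, called or else abundant list genes, neighbours and nearest profiles; list genes named without a call were partly chosen after their values were seen. The members and lists were chosen with earlier results of these data known. P-values measure the spread between samples, which may be technical, and intervals and floors cover counting error only.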

Additional observations from a re-analysis of the deposited data

Results flagged for a closer look

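Il1rl1 in library 2 labelled Hdc-/- stood apart from the other 3 libraries of its group, at 1.66 CPM (30 reads) against 0.770 to 0.812 CPM (14 to 16 reads) in libraries 1, 3 and the unnumbered one. The gap to the nearest library was 0.953 of the group's range, above Dixon's 95% critical value of 0.829. It was the 1 value found among 33 groups of 4 libraries examined (levels of the 8 genes and Hdc, and the 8 ratios), and chance flags about 1 in 20 such groups.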

How the results depend on the processing

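Prss34 and Mcpt8 kept their direction and passed under all 14 alternatives (adjusted p at most 0.00085 and 3.7e-05). Prss34 entered the filtered fits only through its WT reads, so its passes there are not separate support. Fcer1a passed in each of the 6 alternatives that gave it a value (adjusted p at most 0.0157). Leaving out WT 2, 3 or 4 and the fits on numbered libraries gave none. It entered the 5 fits with 1 library left out only through its WT reads, so those passes are not separate support. Cpa3 passed with DESeq2 alone (-0.42), and Il1rl1 turned to 0.0867 with limma-voom; the cause was not tested. Ms4a2, Fcer1g and Gzmb never passed.

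Counts over all genes moved more. Against 267 higher genes there were 449 with DESeq2, 134 in the numbered libraries alone, and 137 to 382 with one library left out (137 without library 3, 154 without the unnumbered library and 175 without library 2 labelled Hdc-/-, 170 without WT 2). The 352 lower genes became 211 in the numbered libraries. Same-numbered libraries did not deviate together (correlations of deviations -0.06, -0.02 and 0.01, against -0.03 to 0.05 between different numbers). This check cannot exclude a pairing by number. A replicate block on libraries 1 to 3 gave 123 higher and 189 lower genes and changed no call among the 6 genes it could test (Fcer1a and Gzmb had no value).

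With any library labelled Hdc-/- left out, the 5 ratios that passed missed the threshold: Prss34/Mcpt8, Mcpt8/Cpa3 and Hdc/Cpa3 kept p = 0.0286 (adjusted 0.0762), and the ratios with Fcer1a had p = 0.0571 (adjusted 0.0914), each by the exact permutation test. With any WT library left out all 5 stayed at 0.0457. Over the 8 fits that left out 1 library, differences ran from -7.53 to -6.32 for Prss34/Mcpt8, -1.89 to -1.67 for Mcpt8/Cpa3, -5.76 to -4.42 for Fcer1a/Fcer1g, 4.12 to 5.43 for Cpa3/Fcer1a and 1.93 to 2.10 for Hdc/Cpa3. Those of Mcpt8/Gzmb (-1.03 to 0.32; 0.14 without library 2 and 0.32 without library 3 labelled Hdc-/-, 0.19 without WT 2) and Il1rl1/Cpa3 (-0.25 without WT 4, to 0.88) changed sign. Depth limits Fcer1a, Ms4a2, Gzmb and Il1rl1, with at most 34 reads in any library.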
